A study of Mus musculus with 16 samples.

Results

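Transcript levels of 9 lysosomal proteases and of the protease inhibitor cystatin C were read in sections of the brachiocephalic artery of atherosclerotic mice. The genes were chosen by name, as the rows of the count table for cathepsins A, B, D, H, K, L, S and Z (Ctsa, Ctsb, Ctsd, Ctsh, Ctsk, Ctsl, Ctss, Ctsz), legumain (Lgmn) and cystatin C (Cst3). They were 10 of 55356 named genes in the table, and all 10 were among the 10634 genes that passed the filter on low counts. The brachiocephalic artery leaves the aortic arch and is a site where plaques form in mice fed cholesterol. It was taken from 16 female mice, 4 in each of 4 groups: Apoe-/- mice after 24 weeks of diet, Apoe-/-Mif-/- mice after 24 weeks, Apoe-/- mice after 42 weeks and Apoe-/-Mif-/- mice after 42 weeks. Every mouse, those with intact Mif included, lacked Apoe, without which remnant lipoproteins pile up in the blood, and none of the groups was on normal chow. The Western-type diet held 0.2% cholesterol and 21.2% fat and began at 6 weeks of age, so the mice with the longer diet were also older. The product of Mif, macrophage migration inhibitory factor, is a cytokine that also acts through chemokine receptors. By its title the series is about aging and how Mif deficiency protects mice from atherosclerosis. From each mouse 3 or 4 frozen sections of 5 µm were pooled, and 1 ng of RNA was amplified by Smart-seq2, which keeps neither molecular identifiers nor strand. A section holds the whole vessel wall, so fewer cells of a type and less RNA per cell cannot be told apart in these values.

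Cathepsins and legumain are made as inactive precursors, carried to endosomes and lysosomes largely by mannose 6-phosphate receptors, and activated there by the low pH and by cutting one another. Macrophages hold large amounts of them, take up and digest lipoproteins and dead cells with them, and can also release them, and in the artery wall several can cut elastin and collagen. Cystatin C is a secreted protein that blocks cysteine cathepsins and legumain outside the cell, and the balance between inhibitor and proteases is a long-standing topic in vascular disease.

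Total counts ranged from 378066 to 8649525 per library. The lowest was library 1 of the Apoe-/- mice at 42 weeks, followed by library 2 of the Apoe-/-Mif-/- mice at 42 weeks with 964628. The 10 genes together took from 1.06% to 5.60% of the counts of a library, with a median of 3.59%. The lowest count of any of the 10 genes in any library was 31 reads, for Ctsk. Mif itself was at 23.2 to 301 CPM in the 8 libraries with intact Mif and at 2.39 to 19.9 CPM in the 8 libraries without it. CPM here is edgeR's counts-per-million scale after scaling library sizes by TMM factors. The macrophage marker Cd68 and the smooth muscle marker Acta2 were counted in all 16 libraries. The sample names carry the letter C for all 4 Apoe-/-Mif-/- mice fed for 24 weeks and B for the remaining 12, and the labels do not say what the letters stand for. If they mark a batch, it cannot be told apart from the groups in the comparison of the genotypes at 24 weeks and in that of the durations in Apoe-/-Mif-/- mice. The other pair of comparisons is within the letter B. The interaction of Mif deletion and duration takes in the letter C group, so such a batch cannot be told apart from it either. Libraries 1 and 4 of the Apoe-/- mice at 24 weeks stood apart: their summed brown adipocyte markers were at 9805 and 2383 CPM and their skeletal muscle markers at 4925 and 2149 CPM, against at most 104 and 13.7 CPM in the other two of that group. Library 4 also held 2796 CPM of T cell markers, and libraries 2 and 4 of the Apoe-/-Mif-/- mice at 42 weeks held 2199 and 1419 CPM of brown adipocyte markers. The differences between durations in Apoe-/- mice are given with and without the first pair.

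RefSeq promoter windows of build GRCm38.p6 were at hand for 8 of the 10 genes, all but Ctsb and Ctsh, with 10 windows in all. The 250 bases before each start were searched on both strands for 5 motifs, which were chosen with these sequences in view. The letters CACGTG are the palindromic core of the element read by TFEB and its relatives, the transcription factors that drive lysosomal genes. They were found in 6.02% of all 32851 windows and in 4 of the 10 windows of these genes, from Ctsa, Ctsd, Ctsl and Lgmn. The longer form TCACGTG, which contains CACGTG, was found in 3.13% of all windows and in 3 of the 10 windows, from Ctsa, Ctsd and Lgmn. A pair of GAAA separated by any 2 bases, a form read by interferon regulatory factors, was found in 2.98% of windows and in that of Ctss. GAGGAAGT, a form read by the myeloid factor PU.1, was found in 2.44% of windows and in none of these genes. The GC box GGGCGG was found in 32.7% of windows and in 5 of the 10 windows of these genes, from 5 genes. The whole window of Ctsd is shown because it holds CACGTG at 2 places and because Ctsd had the smallest p of the 10 genes between durations in Apoe-/- mice. The stretches of the other genes are shown around their matches for comparison, and Cst3, without CACGTG, is shown as the inhibitor. Capitals mark CACGTG in the first 4, the GAAA pair in Ctss and GGGCGG in Cst3. All are written 5′ to 3′ on the strand of the gene. A match describes letters only and is not evidence of binding.
Ctsd, chr7:142387828-142388077, minus strand: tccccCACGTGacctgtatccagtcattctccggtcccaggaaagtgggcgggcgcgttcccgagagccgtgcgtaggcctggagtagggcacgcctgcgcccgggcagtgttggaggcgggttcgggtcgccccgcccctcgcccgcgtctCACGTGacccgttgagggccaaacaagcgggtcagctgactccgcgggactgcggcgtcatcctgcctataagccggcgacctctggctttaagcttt
Ctsa, chr2:164833733-164833772, plus strand: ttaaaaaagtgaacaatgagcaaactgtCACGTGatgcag
Ctsl, chr13:64370731-64370770, minus strand: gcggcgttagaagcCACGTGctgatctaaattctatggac
Lgmn, chr12:102439123-102439162, minus strand: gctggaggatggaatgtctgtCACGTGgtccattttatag
Ctss, chr3:95526696-95526785, plus strand: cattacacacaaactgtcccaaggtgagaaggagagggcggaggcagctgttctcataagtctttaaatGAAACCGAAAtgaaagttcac
Cst3, chr2:148875513-148875632, minus strand: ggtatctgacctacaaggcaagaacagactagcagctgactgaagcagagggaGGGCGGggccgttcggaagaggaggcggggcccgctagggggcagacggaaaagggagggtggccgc
The E-box stretches differ in where they lie. The match of Ctsa ended 7 bases before the start, that of Lgmn 44 bases before one of its starts, that of Ctsl 231 bases before it, and those of Ctsd 93 and 240 bases before it. The GAAA pair of Ctss ended 12 bases before the start.

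Per kilobase of transcript, Cst3 was the most abundant of the 10 in 13 of 16 libraries and Ctsd in the other 3. The median over the 16 libraries was 5702 CPM per kb for Cst3 and 2921 for Ctsd, the aspartic protease. Next came Ctsl with 1807, Ctsb with 1703 and Ctss with 1187 CPM per kb, which are cysteine endopeptidases. The carboxypeptidase Ctsz had 821, Lgmn 530, the serine carboxypeptidase Ctsa 383, the aminopeptidase Ctsh 271 and Ctsk 175 CPM per kb. These levels rest on 1 reference transcript per gene of GENCODE M21, from 860 bases for Cst3 to 4743 bases for Ctsb, and counts from other isoforms would shift them. Ctsk, the main collagen-degrading cathepsin of osteoclasts, was the lowest. Of the 6 osteoclast markers, Calcr was at 0 in 15 libraries and Mmp9 and Ocstamp each in 13. Dcstamp, a gene of osteoclast and macrophage fusion, was at 0 in 5 libraries, and Acp5 and Atp6v0d2, which macrophages also express, were counted in all 16.

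**Figure D1:**
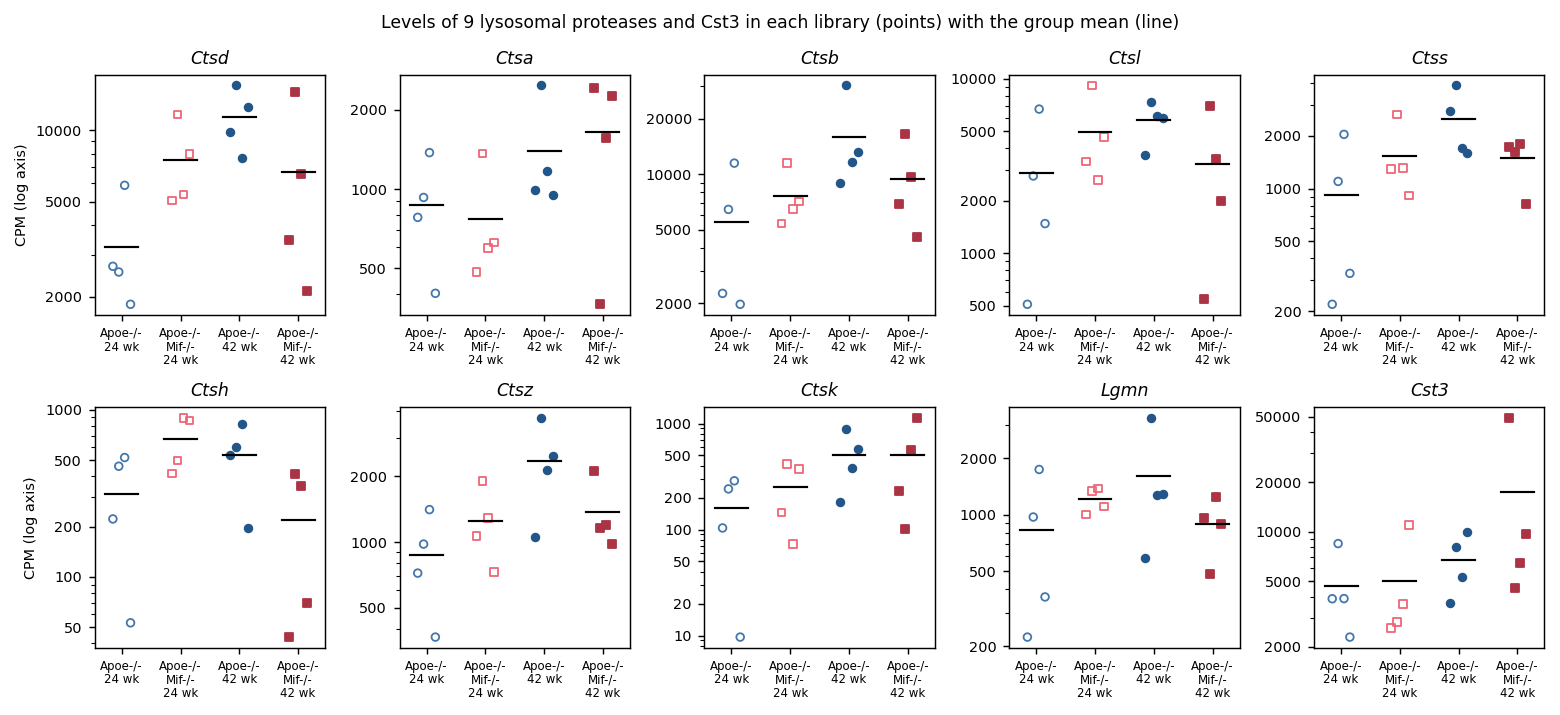
Level of each gene in CPM (vertical log axis) in the 16 libraries, by group along the horizontal axis; points are single mice and the line is the mean of 4. Every Apoe-/- mouse at 42 weeks lay above every Apoe-/- mouse at 24 weeks for Ctsd, and 1 Apoe-/-Mif-/- mouse at 42 weeks stood far above all others for Cst3.

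Ctsd, which digests proteins and trims other lysosomal precursors, had the clearest difference between durations in Apoe-/- mice. Its levels in libraries 1 to 4 were 2681, 2537, 5877 and 1855 CPM in Apoe-/- mice at 24 weeks and 9847, 15469, 7638 and 12602 CPM at 42 weeks. In Apoe-/-Mif-/- mice they were 5075, 11673, 5376 and 7984 CPM at 24 weeks and 3455, 14507, 6551 and 2112 CPM at 42 weeks. All 4 Apoe-/- libraries at 42 weeks were above all 4 at 24 weeks, and the 4 groups overlapped in every other pairing. The means were 3237 ± 1796 (SD, n = 4) and 11389 ± 3394 CPM in Apoe-/- mice, a log2 fold change of 1.81 ± 0.50 (SE). This did not pass after adjustment over all genes (edgeR quasi-likelihood test, Benjamini-Hochberg adjusted p = 0.322). Without libraries 1 and 4 of the Apoe-/- mice at 24 weeks the log2 fold change was 1.40, with an adjusted p of 0.536. Over all 24 alternatives the edgeR, DESeq2 or limma adjusted p lay between 0.0787 and 0.536. With Mif deleted, the mean was 7527 ± 3057 CPM at 24 weeks and 6656 ± 5554 CPM at 42 weeks, a log2 fold change of -0.18 ± 0.48 whose sign turned under DESeq2 size factors (0.56). The genotype difference was 1.22 ± 0.49 at 24 weeks (edgeR adjusted p = 0.499) and -0.77 ± 0.48 at 42 weeks (edgeR adjusted p = 0.398).

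Ctsa is a serine carboxypeptidase that also shields beta-galactosidase and neuraminidase in the lysosome. Its mean was higher at 42 than at 24 weeks in both genotypes, 1398 against 872 CPM in Apoe-/- mice and 1653 against 768 CPM in Apoe-/-Mif-/- mice. Its level ran from 402 to 1376 CPM in Apoe-/- mice at 24 weeks, from 484 to 1363 CPM in Apoe-/-Mif-/- mice at 24 weeks, from 952 to 2476 CPM in Apoe-/- mice at 42 weeks and from 365 to 2419 CPM in Apoe-/-Mif-/- mice at 42 weeks. All groups overlapped. Its log2 fold changes lay between -0.18 and 1.11, the last for duration in Apoe-/-Mif-/- mice (edgeR adjusted p = 0.459).

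Ctsb, an abundant cysteine protease with both endopeptidase and peptidyl-dipeptidase activity, also had a higher mean at 42 than at 24 weeks in Apoe-/- mice, 16025 against 5555 CPM. It was at 2269, 6463, 11507 and 1981 CPM in Apoe-/- mice at 24 weeks and at 9011, 30286, 11600 and 13202 CPM at 42 weeks. With Mif deleted it was at 5427, 11510, 6502 and 7140 CPM at 24 weeks and at 6901, 16592, 9698 and 4602 CPM at 42 weeks. Library 2 of the Apoe-/- mice at 42 weeks was the highest of all 16, and library 3 at 24 weeks reached into the range of the longer duration. The log2 fold change between durations in Apoe-/- mice was 1.53 ± 0.49 (edgeR, adjusted p = 0.322), and it was 0.81 without libraries 1 and 4 of the 24-week mice. Without Mif it was 0.31 ± 0.48, with the opposite sign when library totals were used in place of TMM (-0.07).

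Ctsl and Ctss are the other two abundant cysteine endopeptidases. Both cut elastin, and Ctss is also the enzyme that removes the invariant chain Cd74 from MHC class II in many antigen-presenting cells. Ctss was at 219, 1099, 2038 and 329 CPM in Apoe-/- mice at 24 weeks and at 2759, 3870, 1710 and 1592 CPM at 42 weeks. Only library 3 at 24 weeks reached the range of the 42-week libraries. The log2 fold change was 1.43 ± 0.62 (edgeR, adjusted p = 0.354) and was 0.63 without libraries 1 and 4 of the 24-week mice. Ctss in Apoe-/-Mif-/- mice ran from 915 to 2646 CPM at 24 weeks and from 815 to 1800 CPM at 42 weeks, a log2 fold change of -0.05 ± 0.61 that turned to 0.58 under DESeq2 size factors. Ctsl was at 510, 2776, 6717 and 1480 CPM in Apoe-/- mice at 24 weeks and ran from 3672 to 7377 CPM at 42 weeks (log2 fold change 1.01 ± 0.61, edgeR adjusted p = 0.525). Ctsl in Apoe-/-Mif-/- mice at 42 weeks was lowest in library 1, at 546 CPM, and highest in library 2, at 7040 CPM.

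Ctsk was the least abundant and the most variable. It was at 104, 242, 288 and 9.69 CPM in Apoe-/- mice at 24 weeks and at 183, 881, 382 and 575 CPM at 42 weeks. In Apoe-/-Mif-/- mice it was at 145, 417, 72.9 and 372 CPM at 24 weeks and at 232, 102, 568 and 1120 CPM at 42 weeks. The ranges overlapped in all pairings. The log2 fold change between durations was 1.65 ± 0.90 in Apoe-/- mice (edgeR adjusted p = 0.460) and 1.01 ± 0.88 in Apoe-/-Mif-/- mice (edgeR adjusted p = 0.653).

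Among the exopeptidases, Ctsz was at 721, 979, 1408 and 367 CPM in Apoe-/- mice at 24 weeks and at 1056, 3689, 2140 and 2476 CPM at 42 weeks. Library 1 at 42 weeks lay within the 24-week range and the other 3 above it. The log2 fold change was 1.43 ± 0.58 (edgeR, adjusted p = 0.331), and 0.95 without libraries 1 and 4 of the 24-week mice. Ctsh, an aminopeptidase, differed most between durations in the mice without Mif. It was at 416, 497, 889 and 864 CPM in Apoe-/-Mif-/- mice at 24 weeks and at 43.7, 412, 348 and 69.7 CPM at 42 weeks, so that all 4 libraries at 42 weeks were below all 4 at 24 weeks, by a narrow margin between 412 and 416 CPM. The log2 fold change was -1.61 ± 0.82 (edgeR, adjusted p = 0.396) and kept its sign in all 24 alternatives. In Apoe-/- mice Ctsh was at 222, 459, 518 and 53.1 CPM at 24 weeks and at 537, 598, 817 and 197 CPM at 42 weeks, a log2 fold change of 0.78 ± 0.80 (edgeR adjusted p = 0.741).

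Lgmn, which cuts after asparagine and matures several cathepsins, was at 223, 972, 1741 and 365 CPM in Apoe-/- mice at 24 weeks and at 586, 3262, 1272 and 1293 CPM at 42 weeks. The groups overlapped, with a log2 fold change of 0.96 ± 0.65 (edgeR adjusted p = 0.576). Without Mif it kept within 1004 to 1381 CPM at 24 weeks and 482 to 1237 CPM at 42 weeks.

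Cst3 was at 3904, 8449, 3913 and 2283 CPM in Apoe-/- mice at 24 weeks and at 3691, 8006, 5290 and 9872 CPM at 42 weeks. In Apoe-/-Mif-/- mice it was at 2583, 2823, 3611 and 10986 CPM at 24 weeks and at 48808, 4517, 6448 and 9707 CPM at 42 weeks. Library 1 of the last group was several times above all other 15 libraries, and the remaining 3 lay within the range of the other groups. The log2 fold change between durations in Apoe-/-Mif-/- mice was 1.80 ± 0.58 (edgeR, adjusted p = 0.190). It was 0.45 (edgeR adjusted p = 0.766) without that library. With no filter on low counts the adjusted p was 0.0136, the only alternative among 24 in which it passed, and the range over the alternatives was 0.0136 to 0.766. The genotype difference at 42 weeks was 1.37 ± 0.57 (edgeR, adjusted p = 0.220), and 0.03 (edgeR adjusted p = 0.990) without the same library. In that library, markers of smooth muscle summed to 16955 CPM and those of chondrocytes to 4974 CPM, each the highest of the 16, and fibroblast markers to 18321 CPM. Their part in the Cst3 level was not tested. In Apoe-/- mice Cst3 differed little between durations, with a log2 fold change of 0.53 ± 0.56 (edgeR adjusted p = 0.744).

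Read as a list, the 10 genes were all higher at 42 than at 24 weeks in Apoe-/- mice, with a median log2 fold change of 1.22 beside -0.12 over all genes tested and 47.3% of genes above 0. None of the 10 was called at an adjusted p under 0.05, and neither was any of the 10634 genes (0%, edgeR), of which 1301 (12.2%) had an unadjusted p under 0.05. DESeq2, which called 372 genes, and both limma fits called none of the 10 either. At an unadjusted p under 0.05, 4 of the 10 were higher (Ctsd, Ctsb, Ctsz and Ctss), beside 3.87% of all genes. That count was 2 without library 2 of the Apoe-/- mice at 42 weeks (edgeR) and 7 by limma on the deposited values. Groups that did not overlap, higher at 42 weeks, were found for 1 of the 10, Ctsd, beside 1.06% of all genes. Without libraries 1 and 4 of the 24-week mice all 10 were still higher, but the median was 0.45 and 1 gene had an unadjusted p under 0.05. Ctsk was then at 0.91, Ctsa at 0.26, Ctsl at 0.25, Lgmn at 0.22, Ctsh at 0.12 and Cst3 at 0.10. Most macrophage markers were higher as well. Of the 12 markers 9 were higher at 42 weeks, 6 of them at an unadjusted p under 0.05 and none called, with a median log2 fold change of 1.39. Their summed level was 2041, 9626, 18039 and 3586 CPM at 24 weeks and 14048, 37068, 17436 and 17020 CPM at 42 weeks. Among the 12, Fcgr1 and Itgam were at 0 in 1 library each and Mrc1 in 3. Of the 7 foamy macrophage markers, among them Spp1, Trem2 and Gpnmb, 6 were higher and none called. Set against the macrophage sum, Ctsd was at 1314, 264, 326 and 517 CPM per 1000 CPM of markers at 24 weeks and at 701, 417, 438 and 740 at 42 weeks. The means were 605 and 574, but without libraries 1 and 4 the 24-week mean was 295, so the nearness of the means rested on that pair. For Ctsb the means were 743 and 725, and 655 at 24 weeks without the pair. All 5 erythroid markers were also higher at 42 weeks, each at an unadjusted p under 0.05 and none called, with a median log2 fold change of 3.76. Their sums were 1269, 284, 136 and 229 CPM at 24 weeks and 1954, 20088, 546 and 2140 CPM at 42 weeks. The part of macrophage content, blood, fat or muscle in the 10 genes' difference was not tested.

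**Figure D2:**
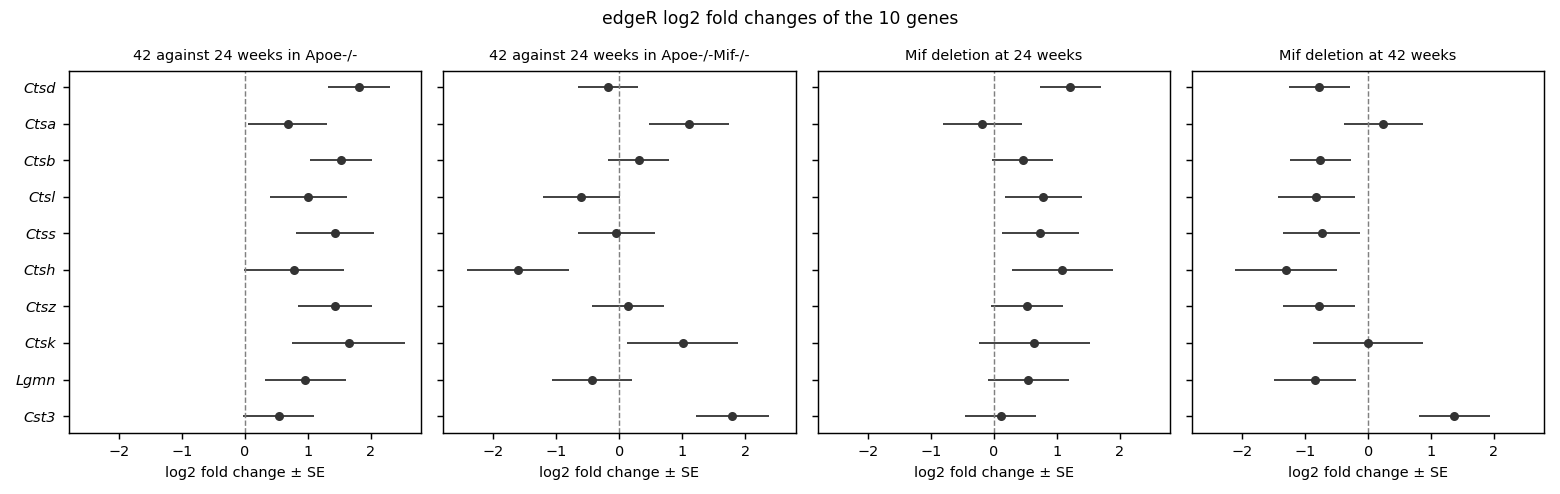
edgeR log2 fold change of each gene (horizontal axis, points, with bars of 1 SE) in the 4 comparisons, from 16 libraries fitted together. The points lie right of 0 for all 10 genes between durations in Apoe-/- mice, and for 7 of 10 they lie left of 0 for Mif deletion at 42 weeks; none passed after adjustment over all genes.

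The comparisons that follow share groups with this one, so their values stand side by side and are not independent of it. With Mif deleted, 5 of the 10 genes were higher and 5 lower at 42 than at 24 weeks, beside 52.9% of all genes higher. The median log2 fold change was 0.04 beside 0.12 over all genes. None of the 10 was called by edgeR, DESeq2 or limma on the filtered genes, against 13 genes in all (0.122%, edgeR). At an unadjusted p under 0.05 the 10 genes gave 1, Cst3, beside 7.45% of all genes higher. Ctsh was the 1 gene whose groups did not overlap, lower at 42 weeks, beside 3.03% of all genes. The split depended on the scaling: 8 genes were higher under DESeq2 size factors, which put the median of all genes at 0.54, and 3 with library totals, which put it at -0.27. Of the 12 macrophage markers, 8 were higher and 4 lower, with sums of 9257, 20134, 12990 and 10999 CPM at 24 weeks and 10682, 34151, 19712 and 12256 CPM at 42 weeks. Foamy macrophage markers were higher at 42 weeks for 2 of 7 and erythroid markers for 4 of 5. Brown adipocyte markers were higher for 3 of 4 and skeletal muscle markers for all 5, none of them called. All 4 white adipocyte markers tested were higher, 1 of them called. The part of these cells in the 10 genes' values was not tested.

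Deletion of Mif at 24 weeks put 9 of the 10 genes higher, beside 45.1% of all genes, and Ctsa lower, with a median log2 fold change of 0.60 beside -0.18 over all genes. None of the 10 was called, against 5 genes in all (0.047%, edgeR), and DESeq2 and limma called none of the 10. Ctsd was the 1 gene higher at an unadjusted p under 0.05 (log2 fold change 1.22 ± 0.49), beside 1.77% of all genes. By DESeq2 0 of the 10 were, and without library 3 of the Apoe-/- mice 4 were (edgeR). The direction rested on libraries 1 and 4 of the Apoe-/- mice: without them 4 genes were higher and 6 lower, the median was -0.07, and Ctsd had a log2 fold change of 0.81. With all libraries, 10 of 12 macrophage markers were higher in Apoe-/-Mif-/- mice, 1 of them at an unadjusted p under 0.05, as were all 7 foamy macrophage and all 5 erythroid markers. Libraries 1 and 4 of the Apoe-/- mice had macrophage sums of 2041 and 3586 CPM, below the range of 9257 to 20134 CPM without Mif. Libraries 2 and 3 lay within it, at 9626 and 18039 CPM. Foamy macrophage sums were 6802 and 7112 CPM in libraries 1 and 4 and 30094 and 44304 CPM in libraries 2 and 3. Without Mif they ran from 15964 to 45236 CPM. All 5 skeletal muscle markers were lower, 3 of them called, and all 4 brown adipocyte markers, none of them called. All 4 white adipocyte markers tested were lower too, each at an unadjusted p under 0.05 and 1 of them, Plin1, called. What part these cells had was not tested.

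At 42 weeks 7 of the 10 genes were lower in Apoe-/-Mif-/- than in Apoe-/- mice, beside 48.2% of all genes. Ctsa, Ctsk and Cst3 were the 3 higher, with Ctsk at a log2 fold change of 0.00 ± 0.88 whose sign changed between settings. The median was -0.77 beside 0.09 over all genes. None of the 10 and none of the 10634 genes was called (0%, edgeR), and 1835 genes (17.3%) had an unadjusted p under 0.05. DESeq2, which called 902 genes, and limma called none of the 10. At an unadjusted p under 0.05, 1 of the 10 was higher (Cst3), beside 9.26% of all genes, and none was lower, beside 7.99%. These counts moved with the method. limma voom gave 0 higher and 4 lower, and DESeq2 and limma on the deposited values gave 0 and 0. Leaving out library 2 of the Apoe-/-Mif-/- mice at 42 weeks gave 1 higher and 4 lower (edgeR). The 7 lower genes had log2 fold changes from -0.74 for Ctss to -1.30 for Ctsh. Ctsd averaged 11389 ± 3394 and 6656 ± 5554 CPM (SD, n = 4), and Ctsb 16025 ± 9663 and 9448 ± 5198 CPM, with and without Mif. Library 2 of the Apoe-/-Mif-/- mice was high for both and reached the range of the Apoe-/- libraries. For Ctsb library 3 did so too, at 9698 CPM, above the lowest Apoe-/- library at 9011 CPM. Of the 12 macrophage markers 8 were lower and 4 higher without Mif, none at an unadjusted p under 0.05, and the sums overlapped widely. Of the 7 foamy macrophage markers 6 were lower, 4 of them at an unadjusted p under 0.05 and none called, with a median of -1.09. All 5 erythroid markers were lower, 1 of them at an unadjusted p under 0.05, and 3 of the 4 brown adipocyte markers were higher. The part of these cells in the difference of the 10 genes was not tested. Per 1000 CPM of the 12 macrophage markers, the mean was lower without Mif for the same 7 genes and higher for the same 3, and the ranges overlapped for all 10. Ctsd was at 574 ± 170 with and 313 ± 105 without Mif (SD, n = 4) and Ctsl at 290 ± 73.8 and 149 ± 67.7. Ctss (123 ± 49.1 and 91.7 ± 49.7), Ctsz (111 ± 30.2 and 93.3 ± 72.5) and Lgmn (69.7 ± 19.7 and 59.9 ± 32.6) differed by less than 1 SD. Ctsa was higher without Mif (65.1 ± 6.33 and 125 ± 98.3).

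The interaction asks whether the effect of Mif deletion differed between durations. It was negative for 8 of the 10 genes, beside 46% of all genes, and positive for Ctsa and Cst3, with a median of -1.35 on the log2 scale beside 0.26 over all genes. None of the 10 was called, against 73 genes in all (0.686%, edgeR), and DESeq2 and limma called none of the 10. Ctsd (-1.99 ± 0.69, edgeR, adjusted p = 0.168) and Ctsh (-2.39 ± 1.14, adjusted p = 0.332) were the 2 at an unadjusted p under 0.05 in the lower direction, beside 4.86% of all genes. That count was 0 by DESeq2, 5 by limma voom and 6 without library 3 of the Apoe-/- mice at 24 weeks (edgeR). Leaving out library 2 of the Apoe-/-Mif-/- mice at 42 weeks moved Ctsd to -2.75 with an adjusted p of 0.0486, the only alternative of 23 in which it passed. Over the alternatives the edgeR, DESeq2 or limma adjusted p of Ctsd ran from 0.0486 to 0.578. The value of Cst3 was 1.26 ± 0.79 and turned to -0.19 without library 1 of the same group. Without libraries 1 and 4 of the Apoe-/- mice at 24 weeks the median of the 10 was -0.70. Of the 12 macrophage markers 10 had a negative interaction, with a median of -1.42 and none called. The interaction was also negative for 6 of the 7 foamy macrophage markers, 4 of them at an unadjusted p under 0.05, and for all 5 erythroid markers, 2 of them at an unadjusted p under 0.05, again with none called. All 4 brown adipocyte markers had a positive interaction, 2 of them called, and all 5 skeletal muscle markers, 4 of them called. All 4 white adipocyte markers tested were positive as well, 1 of them called. Their part in the interaction of the 10 genes was not tested.

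The level of inhibitor relative to proteases was read as Cst3 over the sum of the 7 cysteine proteases Ctsb, Ctsh, Ctsk, Ctsl, Ctss, Ctsz and Lgmn, each per transcript length. It was 2.64, 1.89, 0.469 and 1.41 in Apoe-/- mice at 24 weeks and 0.590, 0.513, 0.634 and 1.17 at 42 weeks. Without Mif the ratio was 0.556, 0.283, 0.716 and 2.00 at 24 weeks and 11.05, 0.545, 1.05 and 2.51 at 42 weeks. The median over 16 libraries was 0.881. All 4 groups had libraries on both sides of 1 and overlapped. The ratio varied within every group, and library 1 of the Apoe-/-Mif-/- mice at 42 weeks had the highest value of all 16.

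**Figure D3:**
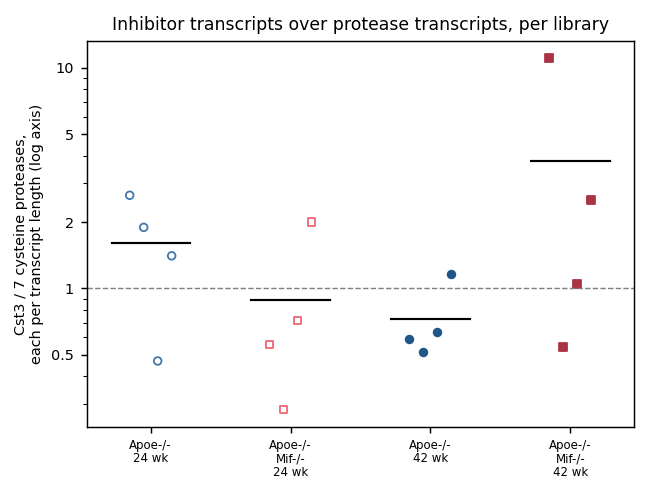
Ratio of Cst3 to 7 cysteine proteases, each per transcript length (vertical log axis), in the 16 libraries by group; points are mice, solid lines are means of 4 and the dashed line marks 1. The highest value is 11.05, in library 1 of the Apoe-/-Mif-/- mice at 42 weeks, and the lowest 0.283, in library 2 of the Apoe-/-Mif-/- mice at 24 weeks.

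Across the 16 libraries, 5 proteases followed the summed macrophage markers by both measures of correlation. Ctsb did so most closely, with Pearson r = 0.94 and Spearman rho = 0.90 on log2 CPM (n = 16, 100000-resample permutation test, adjusted p = 0.0004 and 0.0008 over 40 relations). Without the 2 libraries farthest from the median marker level r was 0.91, and within the libraries of letter B it was 0.94 (n = 12). For Ctsd r was 0.77 and rho 0.81 (permutation test, adjusted p = 0.00187 and 0.00453), with r = 0.75 without the 2 farthest libraries and 0.78 in letter B. For Ctss r was 0.90 and rho 0.79 (permutation test, adjusted p = 0.0004 and 0.0049), with r = 0.66 and 0.90. For Ctsl r was 0.78 and rho 0.86 (permutation test, adjusted p = 0.01 and 0.0008), with r = 0.63 and 0.81. For Ctsz r was 0.71 and rho 0.69 (permutation test, adjusted p = 0.0146 and 0.0335), with r = 0.54 and 0.71. Lgmn had r = 0.73 (permutation test, adjusted p = 0.0144) but rho = 0.59 (adjusted p = 0.101), and r fell to 0.27 without the 2 farthest libraries, on which that relation rests. Lgmn also went with smooth muscle markers (r = 0.73, permutation test, adjusted p = 0.0103, and rho = 0.58, adjusted p = 0.101), with r = 0.64 without the 2 farthest libraries and 0.78 in letter B. With fibroblast markers it had r = 0.66 (permutation test, adjusted p = 0.0243) and rho = 0.38 (adjusted p = 0.327), with r = 0.39 and 0.65. Ctsk, Ctsh and Ctsa had r of 0.57, 0.43 and 0.33 with macrophage markers and did not pass. Cst3 had r = 0.16 with them and rho = 0.10 (permutation test, adjusted p = 0.626 and 0.844). Ctsa and Ctsk correlated with the fibroblast markers Pdgfra, Dcn, Lum, Dpt and Col1a1 by Pearson's measure, with r = 0.65 and 0.64 (permutation test, adjusted p = 0.0287 for both), whereas the adjusted p of rho was 0.101 and 0.107. Without the 2 farthest libraries these r were 0.58 and 0.66, and within letter B 0.78 and 0.68. The points share library size and amplification, and the groups differ among them.

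**Figure D4:**
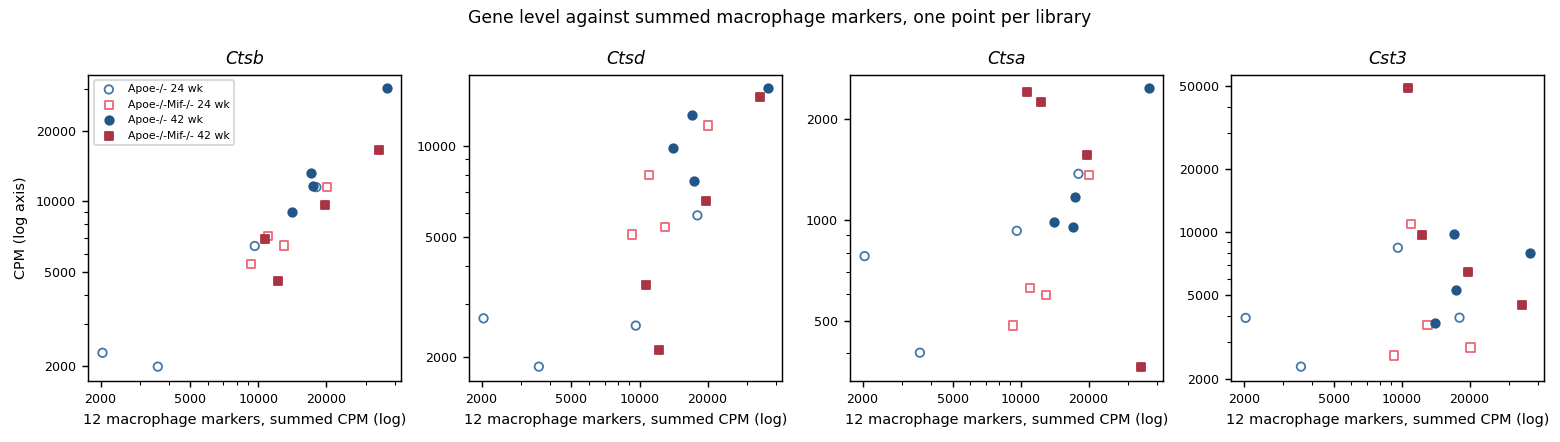
Level of Ctsb, Ctsd, Ctsa and Cst3 (vertical log axes, CPM) against the summed level of 12 macrophage markers (horizontal log axes, CPM), with 1 point per library and symbols for the 4 groups. Ctsb lies close to a line (r = 0.94), Ctsd follows more loosely (r = 0.77), and Ctsa and Cst3 show no such order (r = 0.33 and 0.16).

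Among the 45 pairs of the 10 genes, 10 pairs passed an adjusted p under 0.05 by both Pearson's and Spearman's measure over the 16 libraries, and none of the 9 pairs with Cst3 did. The closest were Ctsb with Ctss (r = 0.89, rho = 0.75, permutation test, adjusted p = 0.00045 and 0.00847) and Ctsb with Ctsd (r = 0.87, rho = 0.92, adjusted p = 0.00045 for both). Without the 2 libraries farthest in Ctsb these r were 0.83 and 0.81, and within letter B 0.91 and 0.89. Ctsa went with Ctsk (r = 0.74, rho = 0.75, permutation test, adjusted p = 0.00277 and 0.00847, with r = 0.72 without 2 libraries and 0.78 in letter B) and hardly with Ctsd (r = 0.04, rho = 0.12). The median r of Cst3 to the other 9 was 0.19, from -0.37 with Ctsh to 0.57 with Ctsa, whereas that of Ctsb was 0.73.

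**Figure D5:**
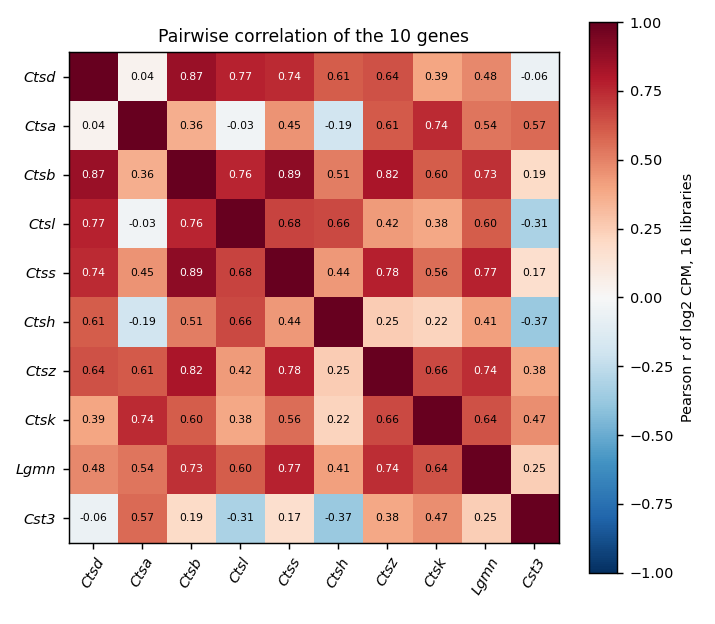
Pearson r of log2 CPM over 16 libraries for each pair of the 10 genes (rows and columns), coloured from -1 (blue) to 1 (red), with the value in each cell. Ctsd, Ctsb, Ctsl and Ctss form a block with r of 0.68 to 0.89, and the Cst3 row runs from -0.37 to 0.57.

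The 3 genes outside the 10 whose log2 CPM followed each of them most closely over the 16 libraries, by Pearson r, are given as a description, since they were picked as the highest of all tested genes. For Ctsd these were Psap (r = 0.95), the precursor of the saposins that help lipid hydrolases, Ftl1 (0.91), the ferritin light chain, and Ftl1-ps1 (0.90). For Ctsb they were Ftl1 (0.93), Ftl2-ps (0.92) and the complement subunit gene C1qb (0.91). Reads of Ftl1 and of its near-identical pseudogene copies cannot be told apart with certainty. For Ctsl they were Gpnmb (0.90), Cxcl16 (0.90) and Wfdc17 (0.88), for Ctss Lgals3 (0.93), Cyba (0.88) and C1qa (0.87), and for Ctsz Cd68 (0.92), S100a11 (0.86) and Gabarap (0.83). Ctsa was followed by Cstb (0.86), the intracellular cysteine protease inhibitor stefin B, Arpc2 (0.84) and Ttc1 (0.82). Ctsh was followed by B4galt1 (0.86), Renbp (0.85) and Il10rb (0.84), Ctsk by Rhoc (0.84), Col4a1 (0.79) and Cd9 (0.78), and Lgmn by Pdgfa (0.89), Cd9 (0.87) and Vim (0.85). By rank these relations were looser. In the same order, Spearman's rho was 0.64, 0.55 and 0.67 for Ctsh, 0.69, 0.57 and 0.75 for Ctsk, and 0.66, 0.51 and 0.59 for Lgmn. Cst3 was followed by Ltbp4 (0.85), a matrix protein that binds latent TGF-beta, Gsn (0.84), the actin-severing protein gelsolin, and Jmjd8 (0.80, with rho = 0.57).

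The spread between mice of 1 group had a median near that of all genes at or above the level of Ctsk, the lowest of the 10. Those genes were not matched to the level of each of the 10. The SD of log2 CPM within groups had a median of 0.90 over the 10 genes, beside 1.91 over all 10634 genes. The 483 genes with a mean level at or above the lowest of the 10 had a median of 0.95. Ctsz varied least (SD 0.67) and Ctsk most (SD 1.54), followed by Ctsh (1.22) and Ctsl (1.19). Of the 483 genes, 18.8% had a smaller SD than Ctsz and 95.4% a smaller SD than Ctsk.

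Other genes of the pathway were read from fixed lists, and none of them was called by edgeR in any of the 5 comparisons. Of 6 other cathepsins 3 were tested, and the smallest p was that of Ctsf, a cysteine protease (log2 fold change 2.86 ± 1.33 for 42 against 24 weeks in Apoe-/-Mif-/- mice, edgeR adjusted p = 0.350), which was at 5.13 to 17.6 CPM at 24 weeks and 5.57 to 201 CPM at 42 weeks. Of 6 other cystatins and stefins 2 were tested, and the smallest p was that of the secreted inhibitor Cst6 for Mif deletion at 42 weeks (3.27 ± 1.57, edgeR adjusted p = 0.278). Like Cst3, Cst6 was highest in library 1 of the Apoe-/-Mif-/- mice at 42 weeks, at 224 CPM. All 8 genes of delivery and activation were tested. Sort1, which encodes the sorting receptor sortilin, had an interaction of 6.12 ± 1.83 (edgeR, adjusted p = 0.103) and was at 1101, 343, 35.7 and 14.2 CPM in Apoe-/-Mif-/- mice at 42 weeks, with libraries 1 and 2 above all other 14. In Apoe-/- mice 7 of these 8 were higher at 42 weeks, with a median log2 fold change of 0.93 and 1 at an unadjusted p under 0.05. Both partners of Ctsa were tested, with the smallest p for Glb1, beta-galactosidase, between durations in Apoe-/- mice (2.14 ± 1.07, edgeR adjusted p = 0.415). Of the 4 transcription factors of the TFEB family 3 were tested, and Tfeb had 2.85 ± 1.40 in the same comparison (edgeR adjusted p = 0.408), at 6.75 to 31.2 CPM at 24 weeks and at 217 and 233 CPM in libraries 1 and 3 and at most 4.88 CPM in the others at 42 weeks. Of the 6 substrates, all tested, Fn1, fibronectin, had the smallest p, for Mif deletion at 42 weeks (1.28 ± 0.55, edgeR adjusted p = 0.227). In the group without Mif it ran from 1657 to 34295 CPM, around the range of 3233 to 9461 CPM in Apoe-/- mice.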

How the data were processed

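Counts per gene and variance-stabilised values on a log2 scale were both deposited by the authors for the same 16 libraries of 4 mice per group. Per the submitters' processing notes, reads were trimmed with cutadapt 1.18 and Trim Galore 0.6.4, examined with FastQC 0.11.5 and aligned to GRCm39 with STAR 2.5.2b, and the counting program and annotation are not given in the sources used here. The RefSeq promoter windows are of another build and serve only to show sequence. Of the 55359 rows of deposited counts, 1 blank row (at most 0.00257% of a library) and 2 reporter rows were left out. Smart-seq2 reads carry no molecular identifiers, so each count is a read, not a molecule. The log2 values, which the authors deposited for 9578 genes, served as an alternative.

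One edgeR 4.0.16 quasi-likelihood fit (R 4.3.3) covered all 4 groups, with TMM scaling, filterByExpr (minimum count 10, minimum total 15) and 12 residual degrees of freedom. It gave 4 comparisons of groups and their interaction, and p-values were adjusted by Benjamini-Hochberg over 10634 genes at 0.05. Fold changes are log2 ± SE, and means are CPM ± SD. Correlations used log2 CPM with a prior count of 2 and 100000 permutations (Python 3.11.15, scipy 1.17.1). Mice are separate animals. Alternatives were DESeq2 size factors, no filter, DESeq2 1.42.0, limma 3.58.1 by voom and on the deposited values, only the groups compared, and each library left out. Library totals without TMM, and leaving out libraries 1 and 4 of the Apoe-/- mice at 24 weeks together, were added after seeing the data. The analysis was tested on simulated counts. The 10 genes and all lists were chosen with earlier results of these data known. Genes outside the 10 were named by fixed rules: per list the gene with the smallest p over the 5 comparisons, and per member the 3 genes with the highest Pearson r.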

Additional observations from a re-analysis of the deposited data

Results flagged for a closer look

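Of 48 sets of 4 libraries examined, 5 had a library whose gap to the nearest other as a share of the set's range was above Dixon's 95% critical value for 4 samples. Chance gives about 1 in 20 for independent, normally distributed values. The values here were used without a log and the sets share libraries, so that share is only a rough guide. In Apoe-/-Mif-/- mice at 42 weeks, Cst3 was at 48808 CPM in library 1, far above the other 3. Among Apoe-/-Mif-/- mice at 24 weeks, Cst3 was at 10986 CPM in library 4, and Ctsa at 1363 CPM in library 2. Library 2 of that group also had 4.88% of its counts in the 10 genes, above its 3 fellows. For Apoe-/- mice at 42 weeks, Ctsa was at 2476 CPM in library 2.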

How the results depend on the processing

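Of the 50 gene results (10 genes in 5 comparisons), 36 kept their direction in every alternative run, and 14 turned in at least 1. Among 1190 values under an alternative, 48 had the opposite sign and 2 passed the threshold: Cst3 for duration in Apoe-/-Mif-/- mice with no filter (1.81, adjusted p = 0.0136, edgeR) and Ctsd for the interaction without library 2 of the Apoe-/-Mif-/- mice at 42 weeks (-2.75, adjusted p = 0.0486, edgeR). The cause was not tested. Genes called in all were 5 for Mif deletion at 24 weeks, 0 at 42 weeks, 0 for duration in Apoe-/- mice, 13 for duration in Apoe-/-Mif-/- mice and 73 for the interaction. In that order, no filter gave 117, 150, 18, 419 (1 of the 10 genes among them) and 426, and DESeq2 gave 207, 902, 372, 562 and 546. DESeq2 size factors gave 0 for Mif deletion at 24 weeks and 22 for duration without Mif. limma voom gave 0 in all, and limma on the deposited values gave 0, 0, 0, 2 and 0. Fits of only the groups compared gave 0 and 25 for Mif deletion at 24 and 42 weeks. Library totals gave 4 for duration without Mif and 18 for the interaction. Leaving out libraries 1 and 4 of the Apoe-/- mice at 24 weeks together gave 0 for Mif deletion at 24 weeks, 53 for duration without Mif and 0 for the interaction. Leaving out 1 library at a time, the counts ran from 0 to 21, 0 to 1, 0 to 0, 0 to 36 and 0 to 124, and of the 10 genes 0 to 1 were called for the interaction.

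Signs turned as follows, in log2. For duration in Apoe-/-Mif-/- mice, DESeq2 size factors and DESeq2 gave Ctsd 0.56, Ctsl 0.10 and Ctss 0.58, the deposited values gave Ctsd 0.00272 and Ctss 0.47, the groups compared alone gave Ctss 0.00722, and library totals gave Ctsb -0.072 and Ctsz -0.35. For Mif deletion at 24 weeks, Cst3 was at -0.19 by voom and -0.061 with library totals. For Mif deletion at 42 weeks, Ctsk was at -0.23 by voom, -0.11 on the deposited values, -0.00509 with the groups compared alone, -0.054 with library totals and -0.013 without libraries 1 and 4 of the Apoe-/- mice at 24 weeks. Without that pair, Mif deletion at 24 weeks gave Ctsb -0.25, Ctsk -0.093, Ctss -0.048, Lgmn -0.19 and Cst3 -0.31, and the interaction gave Ctsk 0.080. Leaving out 1 library at a time, Mif deletion at 24 weeks ran from -0.57 to 0.14 for Ctsa and from -0.64 to 0.57 for Cst3, and at 42 weeks from -0.82 to 0.43 for Ctsk. Duration in Apoe-/-Mif-/- mice ran from -0.060 to 0.60 for Ctsb, -0.88 to 0.13 for Ctsd, -0.17 to 0.42 for Ctss and -0.12 to 0.52 for Ctsz, and the interaction from -0.19 to 2.13 for Cst3. DESeq2 size factors moved the median of all genes between durations in Apoe-/- mice from -0.12 to 0.16 and library totals to -0.36, and all 10 genes were higher under both. No paired analysis was possible because the replicate numbers only name the mice in accession order. The least abundant gene, Ctsk, still had 31 reads at its lowest, so no level of the 10 genes rested on fewer.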
